A study of Arabidopsis thaliana with 2 samples.

Results

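AINTEGUMENTA (ANT) and the AINTEGUMENTA-like (AIL) genes encode transcription factors with a repeated AP2 domain, and 5 of them were examined for binding by LEAFY (LFY): ANT (AT4G37750), AIL1 (AT1G72570), AIL5 (AT5G57390), AIL6 (AT5G10510) and AIL7 (AT5G65510). A peak was counted for a gene when the authors' annotation gave that gene as the nearest promoter or named it in the peak's place. Such a place could be a promoter, exon, intron or 3' end. By this rule 2 of the 5 genes had peaks, with 2 peaks at ANT and 1 at AIL6, out of 529 peaks in the list. The same rule gave a peak to 1.50% of all nuclear genes. The rule used gene names and no measured value, but the genes were chosen when earlier results of the same list were known.

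LFY binding was profiled by ChIP-seq, the sequencing of DNA that co-precipitates with a protein, in inflorescences of Arabidopsis thaliana. Both libraries came from ap1 cal1 plants, which lack normal function of the floral regulators APETALA1 and CAULIFLOWER and form proliferating inflorescence meristems where wild-type plants form flowers. All plants carried LFY fused to the hormone-binding domain of the glucocorticoid receptor (35S:LFY-GR), a fusion that moves into the nucleus when dexamethasone is given. Plants were grown for 4 weeks, treated with 10 µM dexamethasone and harvested 4 h later. There was 1 library precipitated with rabbit serum against LFY and 1 input library, with no replicate of either. The peak list is headed LFYGR2 while the library is titled LFYGR, so the peaks may come from this library or from another of the same kind. The 35S promoter is active in most cells, so the fusion was present beyond the normal domain of LFY, and the serum also recognises native LFY. No library from untreated plants was analysed here, so no peak can be tied to the addition of dexamethasone. A peak list carries no expression values, so the inflorescence label could not be checked against marker genes.

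The AIL family is the ANT-related branch of the AP2 subfamily of plant transcription factors. In Arabidopsis, ANT promotes cell proliferation and organ growth. AIL6, also called PLETHORA 3, overlaps with it in the initiation and patterning of floral organs. AIL5 and AIL7 (PLETHORA 5 and PLETHORA 7) act with AIL6 in the positioning of new organs around the shoot. ANT and AIL6 are targets of the auxin response factor MONOPTEROS (ARF5) in young flower primordia, where LFY acts as well, and both have been reported to act upstream of LFY.

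The peak inside AIL6 was the strongest at any of the 5 genes. It lay on chromosome 5 from 3316515 to 3318833 (TAIR10), had a score of 448.8 and ranked 79 of 529, with 85.1% of all peaks below it. The score is the authors' peak caller's own value for each peak and serves here only to order peaks. The median score of all peaks was 133. The peaks next to it in the ranking were those assigned to DDF2 (459.1) and AT5G15220 (448.3). The peak was centred in intron 3 of 6 of the AIL6 transcript AT5G10510.2. Its centre was 1638 bp downstream of the transcription start site (TSS) of AT5G10510.1, the nearest promoter. It reached from 479 to 2797 bp downstream of that TSS, so no part of it covered the start site.

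By score, the AIL6 peak stood high among the peaks centred in introns. There were 38 such peaks in the list, with a median score of 126, and the AIL6 peak ranked 6 among them. Intron 1 held 16 of the 38 and intron 3 held 8. The AIL6 peak ranked just above the peak in intron 2 of AGAMOUS (AG), the stamen and carpel identity gene, at 336.8, and just below one at HAP8 at 464.1. This order takes no account of width: the AIL6 peak was 2319 bp wide, against 1575 bp at AG and 1164 bp at HAP8. For 33 of the 38 peaks, AIL6 included, the gene that held the intron was also the gene of the nearest promoter.

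ANT had 2 peaks, both upstream of the gene and both weaker than the peak in AIL6. The distal peak lay on chromosome 4 from 17733746 to 17734771 (TAIR10), in sequence annotated as intergenic. Its score was 158.2, which ranked 231 of 529 and placed it above 56.3% of all peaks. The peak one place above it had UFO, which encodes the F-box partner of LFY, as nearest promoter, while its annotation named AT1G30960. The peak one place below it (157.3) had DS2 as nearest promoter. The proximal peak lay from 17738072 to 17739089 on the same chromosome and was annotated to the ANT promoter. Its score was 97.5, which ranked 331 of 529 and placed it above 37.4% of all peaks. Thus the distal peak was above the median of all peaks and the proximal peak below it.

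**Figure D1:**
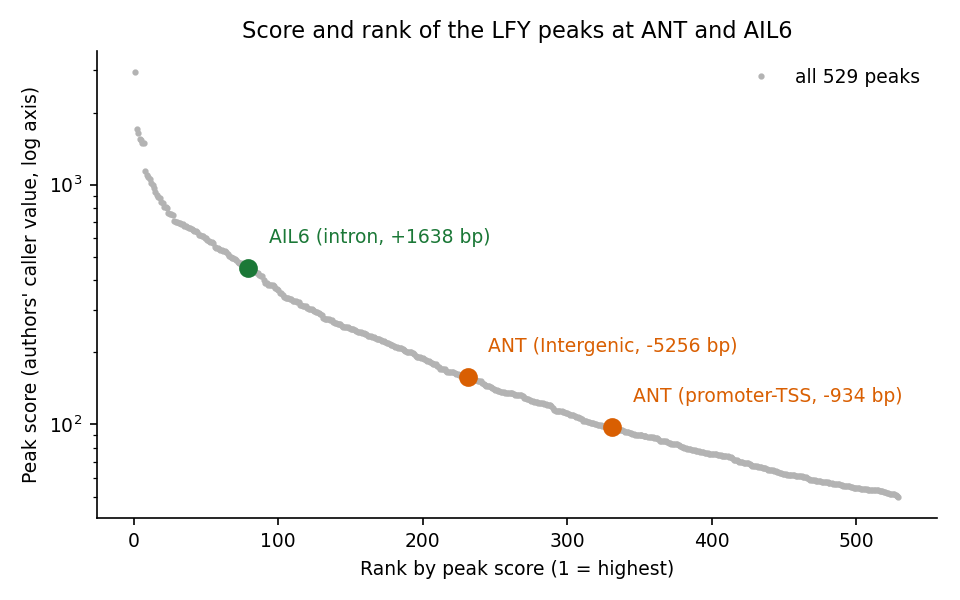
Peak score on a log axis against rank (1 is the highest score) for all 529 peaks in grey, with the peaks at ANT in orange and at AIL6 in green. AIL6 sits at rank 79, and the ANT peaks sit at ranks 231 and 331 on either side of the middle of the list.

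The ANT peaks were separate and far apart. The distal peak was centred 5256 bp upstream of the ANT TSS and reached from 5768 to 4744 bp upstream. The proximal peak was centred 934 bp upstream and reached from 1442 to 426 bp upstream. A gap of 3300 bp without a called peak lay between them. The distal peak was among the most remote in the list: 5 peaks were centred 5 kb or more upstream of the nearest TSS, and 4 were farther from their TSS than this one in either direction. In the gene order of the RefSeq table, the gene before ANT is the non-coding AT4G09655, and the one after it is SQE3. Where AT4G09655 and other genes upstream of ANT lie relative to the distal peak is not given here. The HOMER annotation assigned the distal peak to ANT by distance alone, and whether it acts on ANT was not measured.

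**Figure D2:**
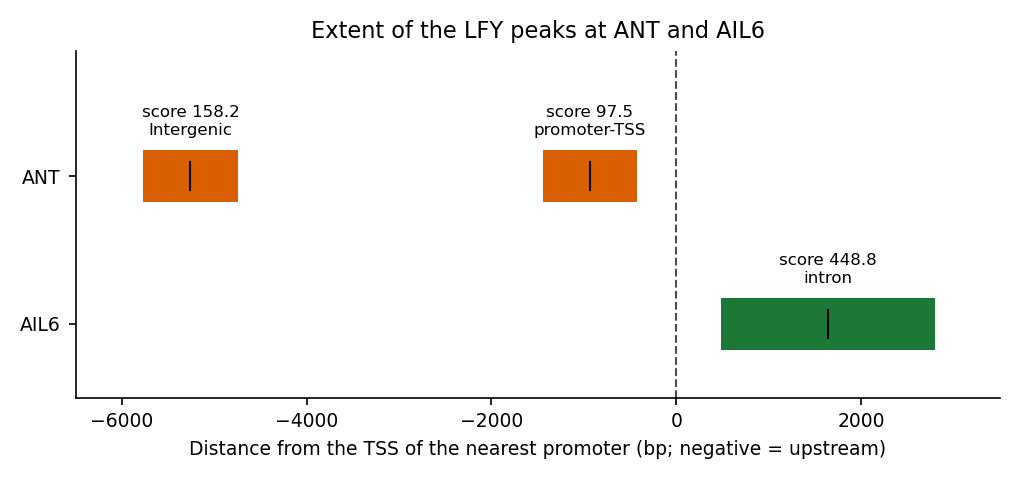
Extent of each peak in bp from the TSS of the nearest promoter (dashed line at 0, negative values upstream) at ANT and AIL6, with the peak centre as a black tick. Both ANT peaks lie upstream, 3300 bp apart, and the AIL6 peak lies wholly downstream, from 479 to 2797 bp.

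Few genes had more than 1 peak as nearest promoter. Pairs were counted by that column alone, which is narrower than the rule used for the 5 genes. Genes with a second peak by annotation only, such as KNAT2 (AT1G70510), were left out. Of the 512 genes named as nearest promoter, 17 (3.32%) had 2 peaks and none had more, and ANT was among the 17. The gap at ANT was the fourth widest, with a median of 821 bp and a range from 55 to 4612 bp over the 17 genes. Wider gaps were found at LCR5 (4612 bp), the homeobox gene STM (3824 bp) and CSLA02 (3349 bp). By their centres, the peaks of those 3 genes lay on different sides of the TSS, whereas ANT was 1 of 5 genes with both peaks centred upstream. A peak centred near a TSS can cover it, as did the STM peak centred 55 bp downstream, which was 1104 bp wide, whereas neither ANT peak reached the TSS. By its stronger peak, ANT ranked 12 of the 17.

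**Figure D3:**
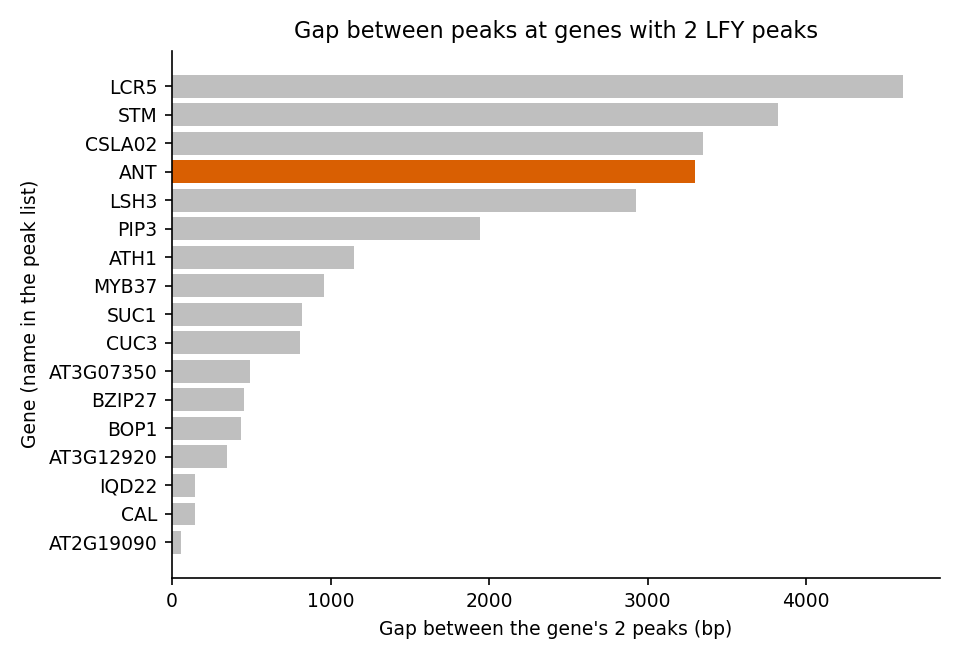
Gap in bp between the peaks of each of the 17 genes that had 2 peaks as nearest promoter, with ANT in orange. The gap at ANT, 3300 bp, is the fourth widest, against a median of 821 bp.

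The peaks at ANT and AIL6 also differed in width. The AIL6 peak was 2319 bp wide and ranked 37 of 529 by width. Of the 50 peaks nearest to it in score rank, 2 were as wide or wider, and their median width was 1221 bp. The ANT peaks were narrower, 1026 bp for the distal and 1018 bp for the proximal one, below the median of 1168 bp over all peaks. Of the 50 peaks nearest to the distal ANT peak in score rank, 35 were as wide or wider, and 38 of 50 were for the proximal peak. When peaks were ordered by score divided by width, AIL6 fell from rank 79 to rank 153, still above both ANT peaks at ranks 192 and 276. Intron peaks were wider in general, with a median of 1563 bp. Whether a wide peak holds 1 bound site or several cannot be read from a peak list.

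**Figure D4:**
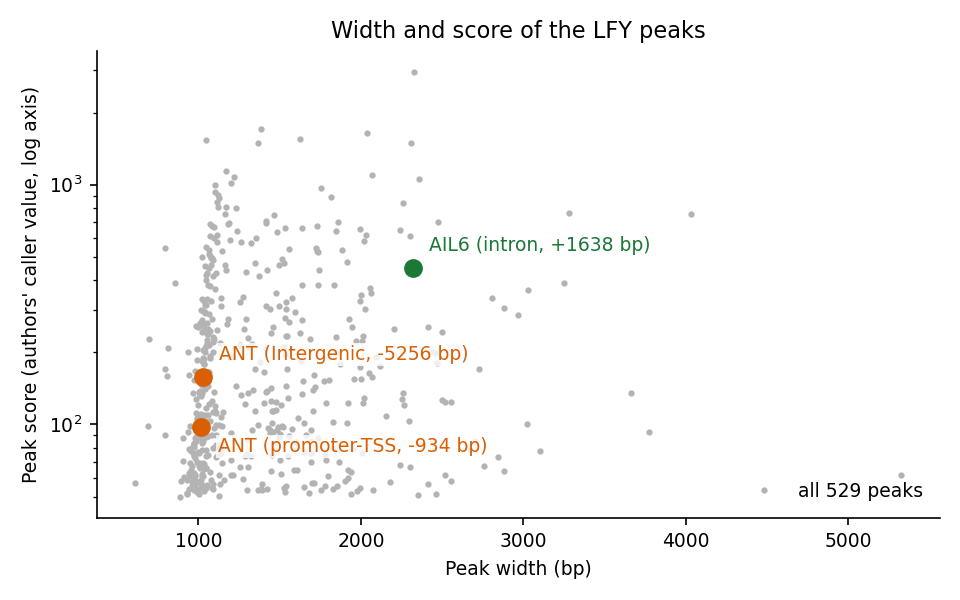
Peak score on a log axis against peak width in bp for all 529 peaks in grey, with the ANT peaks in orange and the AIL6 peak in green. The AIL6 peak, 2319 bp wide, lies to the right of most peaks of its score, and the ANT peaks, 1026 and 1018 bp wide, are narrower than the median of 1168 bp.

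The surroundings of the peaks differed between ANT and AIL6. At AIL6 the nearest peaks on either side were 371 kb and 191 kb away, next to AT5G09463 and KNAT4 (AT5G11060), while the median gap between successive peaks on chromosome 5 was 114 kb. At ANT the next peak downstream was 14.9 kb from the proximal peak, in the region of the ethylene synthesis gene ACS8 (AT4G37770). Upstream of the distal peak, 231 kb held no other peak, against a median gap of 107 kb on chromosome 4.

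AIL1, AIL5 and AIL7 had no peak by either column of the annotation. Absence from the list means that no region at these genes passed the authors' calling threshold. The lowest score in the list was 50.0, and binding below it could not be seen. In the gene order, the closest gene with a peak was 41 genes from AIL1, 25 genes from AIL5 (PAP28) and 16 genes from AIL7 (HB25). Over all 37899 nuclear genes of the table, the median was 31 genes and the middle 50% ranged from 12 to 69, so AIL5 and AIL7 lay somewhat nearer to a peak than the median gene and AIL1 farther. AIL7 and AIL5 overlap in function with AIL6, yet of these relatives AIL6 alone had a peak.

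Peaks were rare among genes as a whole. Of the 37899 nuclear genes, 570 (1.50%) were nearest to a peak or named in its annotation, and 499 (1.32%) were nearest to one. With protein-coding genes only, the share was 1.98% of 27444. The count of 2 of 5 genes stands beside these shares as a description, since the genes were chosen with results known and a single gene changes the count greatly. The median score of the 3 peaks at ANT and AIL6 was 158, against 133 for all peaks. With 3 peaks this median is the score of the distal ANT peak, and the proximal ANT peak, at 97.5, lay below 133.

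Other relatives examined had no peak. The family also holds PLT1 and PLT2, which maintain the root stem cell niche, and BABY BOOM (BBM), a regulator of embryo development, and no peak was assigned to any of the 3. The same was true of 10 other members of the AP2 subfamily. These were the floral organ identity gene AP2, the flowering repressors TOE1, TOE2, TOE3, SMZ and SNZ, and 4 genes of the WRINKLED group, among them WRI1, which controls seed oil synthesis. Together, 0 of these 13 genes had a peak. By the limit of 3 counts this leaves room for a share of 23.1%. That is far above the 1.50% of all genes and the 1.98% of protein-coding genes. By the authors' gene descriptions, 13 peaks at 12 genes carried the term AP2 or ethylene-responsive factor. The AIL6 peak was the second highest of the 13, after that at the ERF-type gene DDF2 (459.1), and the median was 153. ANT and AIL6 were the 2 genes of the 12 described as AP2-like. The description terms were chosen after the values were seen. How many genes carry these terms in all was not counted, so no share stands beside the 12 genes. For 3 of the 13 peaks the description also carries the term B3, and the term AP2 alone does not show that a gene holds that domain.

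Genes of organ initiation and growth, processes in which ANT and AIL6 act, were examined next. Of 19 such genes, 10 were nearest to a peak or named in its annotation, with 11 peaks in all. By the same rule, 1.50% of all genes and 1.98% of protein-coding genes had a peak. The median score of these 11 peaks was 244. The list was drawn up with earlier results known, several of its genes were already seen to have peaks, and its count is no independent evidence.

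Among LFY itself and the auxin genes of the list, the strongest peaks were at LFY, YUC4 and ARF5. ARF5, which encodes MONOPTEROS, had a peak centred 3982 bp upstream with a score of 638.9, rank 43. LFY held a peak in intron 2 of 2 with a score of 752.4, rank 25, which the authors' annotation assigned by distance to AT5G61865. That peak was 4032 bp wide, and LFY sequence is also carried by the LFY-GR transgene of these plants, whose part in the peak was not tested. CRF2, a target of MONOPTEROS that is also called TMO3, had a peak 2940 bp upstream at 243.9. IAA12, which encodes the repressor of MONOPTEROS known as BODENLOS, had no peak, nor did the auxin transport gene PID. The auxin synthesis gene YUC4 had a peak at its 3' end at 696.8, and YUC1 one of 62.3.

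The growth and organ identity genes of the list were split. CYCD3;1, a D-type cyclin gene that is expressed for longer when ANT is overexpressed, had a weak peak at its 3' end (55.4, rank 493). BIG BROTHER (BB), an E3 ligase gene that limits organ size, had a peak in intron 4 of 8 at 135.2. ARGOS, which acts upstream of ANT in organ growth, and CYCD3;3 had none. FIL, a polarity gene that acts with ANT, had a promoter peak of 54.2, and its relative YAB3 had none. STM had peaks of 367.4 and 88.5, the weaker centred 4846 bp upstream. AG had its peak in intron 2. AP3, AHP6, ARF3 and REV had none.

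By score, the AIL6 peak fell between those at ARF5 and STM, and the distal ANT peak fell between those at CRF2 and BB. The proximal ANT peak ranked below BB and above the weaker STM peak.

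**Figure D5:**
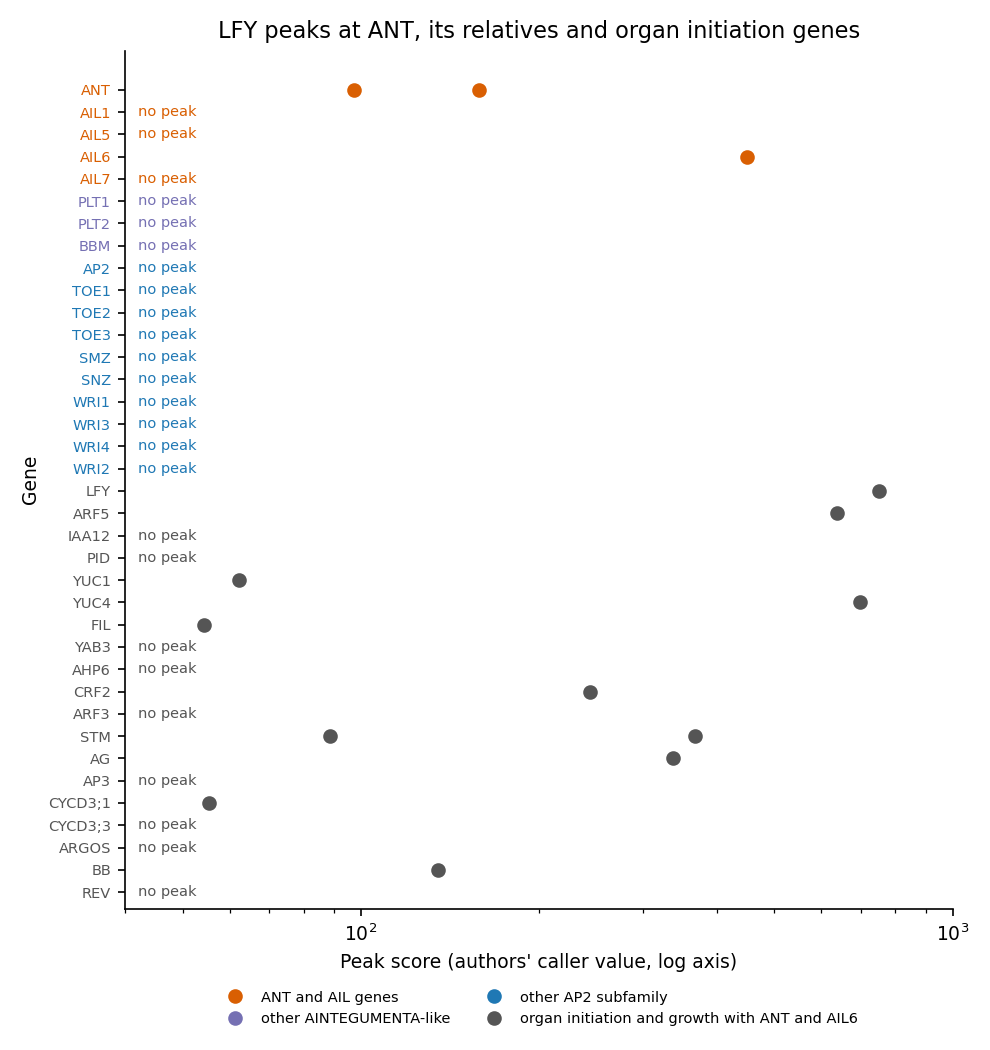
Peak score on a log axis for each gene of the ANT and AIL family (orange), the other AINTEGUMENTA-like genes (purple), other AP2 subfamily genes (blue) and 19 organ initiation and growth genes (grey), with 1 point per peak and the words no peak where none was assigned. Points appear at ANT and AIL6 and at 10 of the 19 grey genes, and at none of the 13 purple and blue genes.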

How the data were processed

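ChIP-seq was carried out on 1 LFY library and 1 input library. The submitters' processing notes name TAIR10, FastQC, HOMER and MACS 1.4. The authors deposited 1 list of peaks with a score per peak, of a scale that no header states, and positions and distances in bp. Per the file headers, HOMER annotatePeaks.pl with its tair10 set annotated peaks called against a contrast, which is not named. The header calls the peak set LFYGR2 and the labels call the library LFYGR, and whether these are the same library is not stated. For the aligner, calling threshold, duplicate reads and pooling, the entry is "not given in the sources used here". No read counts were used, so depth is unknown and a single peak has no stated precision. A caller that compares libraries can miss regions high in both, and wide regions can collect a higher score.

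Peaks were assigned by the nearest promoter, without its transcript suffix, or by the locus in the annotation column. Widths and gaps were counted from the listed ends. Symbols, gene order and gene numbers came from RefSeq (assembly TAIR10.1, coordinates not printed because the build has another name), which held all 37 listed loci and 499 of the 512 nearest genes. AIL1 and WRI2 have only locus codes there. The text names every member, every list gene with a peak, and list genes without one where a count is explained. One further gene drawn up for the organ initiation list was taken out and is not reported here, so the list is counted without it. Members and lists were chosen with earlier results of these data known. With 1 library per group there was no test between conditions and no p-value. The limit for a count of 0 is 3 counts and covers counting error only. Alternatives were other peak subsets, distance and width limits, and other ways to assign or order peaks. A planned protein alignment and motif search needed sequences that were not used here. Assignment, ranks and gaps were checked on a small made-up list of peaks with known answers. Python 3.11.15, pandas 2.3.3, NumPy 2.4.6 and matplotlib 3.10.9 were used.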

Additional observations from a re-analysis of the deposited data

How the results depend on the processing

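No paired analysis was possible because there was 1 library per group and no test. With the 265 higher-scoring peaks, both ANT and AIL6 kept a peak, and ANT lost its proximal one. With the 133 highest-scoring peaks, 1 of the 5 genes (AIL6) had a peak, 1 peak remained, and 5 of the 19 organ initiation genes had one. With peaks centred within 1 kb of the TSS, 1 gene (ANT) and 1 peak remained, and 2 organ initiation genes (FIL and STM) had one. Without the widest 10% of peaks, which include the AIL6 peak, 1 gene (ANT) had peaks. The share of all genes is not given for these smaller sets of peaks, so the counts show only the effect of each setting. Ordering peaks by score divided by width moved AIL6 from rank 79 to 153. The other alternatives left the counts within 1.5 times their value. Assignment by the annotation column alone kept 2 of the 3 member peaks. It dropped the distal ANT peak, whose annotation names no gene, so the pair at ANT rests on the nearest promoter. A limit of 3 kb removed the distal ANT peak. Merging peaks of 1 gene less than 1 kb apart left 3 peaks. That count could not change, because the only pair, at ANT, lies 3300 bp apart. For the 13 other AP2 subfamily genes every alternative run used the same peaks or fewer, so their count of 0 could not rise and was not put to a test. Read depth and input signal were not used here, so weak binding at AIL1, AIL5 and AIL7 could not be seen.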

Other observations

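PLT1 and PLT2, the root paralogues without a peak, both lay close in the gene order to a gene of the WIP zinc finger family that had one. PLT1 was 5 genes from WIP4 (AT3G20880), whose peak was centred in an exon 806 bp downstream of the TSS with a score of 100.4, and PLT2 was 3 genes from WIP5 (AT1G51220), whose peak was centred in an intron 1027 bp downstream with a score of 77.5. The median over all nuclear genes was 31 genes. BBM was 54 genes from the nearest such gene. These neighbours were named after their values were seen, and nothing was tested.

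At ANT the stronger of the 2 peaks was the one farther from the TSS. The same held at all 5 genes with both peaks centred upstream, although a peak centred close to the TSS can extend past it. These genes were ANT, SUC1, BZIP27 (FDP), IQD22 and AT2G19090. At IQD22 and AT2G19090 the annotation column placed the farther peak at another gene, AT4G23050 and AT2G19100 respectively. The peaks of AT2G19090 were only 55 bp apart. Of all 17 genes with 2 peaks by nearest promoter, the rule used for these 5 as well, the farther peak was the stronger at 11. This was seen after the data were examined and was not tested.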
